A study of Homo sapiens with 6 samples.

Results

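PML and RARA, the genes joined in the PML-RARA fusion of acute promyelocytic leukaemia, were examined with 7 genes whose proteins share nuclear bodies or transcription complexes with them. The 9 genes were taken by symbol (PML, RARA, RXRA, NCOR1, SP100, DAXX, ATRX, HIPK2 and CREBBP) from a table of 23858 genes, and each symbol matched 1 gene. NB4 is a human promyelocytic leukaemia cell line that carries the fusion. Its cells were grown in serum-containing medium and left as control or treated with arsenic trioxide (ATO) for 6 h, with 3 libraries per group made from total RNA depleted of ribosomal RNA. The dose, and whether control cells received a vehicle, are not given in the sources used here. All libraries come from this 1 line, and whether replicates were separate cultures is not stated, so the p-values speak only to the spread among these libraries.

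PML, the promyelocytic leukaemia protein, builds nuclear bodies in which it holds SP100, DAXX and other proteins through attachment of the small modifier SUMO. RARA is the retinoic acid receptor alpha, which binds DNA as a dimer with RXRA. Without ligand the dimer holds corepressors such as NCOR1, and with retinoic acid it exchanges them for coactivators such as CREBBP. The fusion protein disrupts the bodies and represses retinoic acid target genes, and arsenic binds its PML part and leads to its SUMO-dependent degradation. The series title ties the comparison to that degradation, while the libraries measure RNA and not protein.

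NB4 cells carry the long form of the fusion, in which PML exon 6 is joined to RARA exon 3. The exon ends on both sides of this join are shown because reads of the fusion transcript fall in the exons before it in PML and after it in RARA, and so count toward both genes. The sequences are those of the unrearranged genes in the transcripts PML-201 and RARA-201 of GENCODE 29, and the 10 bases in capitals are those next to the join.
PML, last 60 bases of exon 6, chr15:74033355-74033414, GRCh38, plus strand: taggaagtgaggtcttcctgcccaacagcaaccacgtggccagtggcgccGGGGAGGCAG
RARA, first 60 bases of exon 3, chr17:40348316-40348375, GRCh38, plus strand: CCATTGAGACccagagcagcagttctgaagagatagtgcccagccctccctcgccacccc
Of the 12657 exonic bases over which PML reads were counted, 43.4% lie up to the end of exon 6. Of the 4731 exonic bases of RARA, 58.6% lie from the start of exon 3 onward. Reads were summed per gene, so the fusion was not measured apart from the normal alleles.

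Library totals were 19361333 to 22609019 reads, and each of the 9 genes had 400 to 12826 reads in each library. Levels are given in RPKM, meaning reads scaled to the kilobases of exon and to the counted reads of the library. The kilobases are those of all annotated exons of a gene together, not of the transcripts present in these cells. Levels of different genes can therefore be set side by side only approximately. Across the 16803 genes tested, the first principal component separated the groups, and the second set control replicate 1 (21.3) and ATO replicate 3 (23.0) apart from the other libraries (-14.8 to -6.85). Of 6 promyelocyte markers 5 were in the table, among them MPO, and their summed level was 998 to 1390 RPKM in control and 666 to 1010 RPKM in treated libraries. All 5 had a lower mean after treatment (median log2 fold change -0.48). AZU1, a granule protein, fell (-0.98, adjusted p = 0.00258 by limma-trend), 3 were lower at an unadjusted p under 0.05, and limma-voom called 3 lower. The part of this list in the results below was not tested. Markers of other cells were low: the summed level was 3.04 to 4.22 RPKM for the T cell list (1 of 4 genes in the table), at most 0.387 RPKM for the erythroid list (1 of 5) and 4.83 to 7.12 RPKM for the epithelial list (2 of 5, mainly EPCAM). No gene of the fibroblast list of 4 was in the table. The B cell list (3 of 4) went from 3.06 to 3.27 RPKM to 6.03 to 6.28 RPKM, and its part in the results below was not tested. In these bulk samples fewer cells of a type and less RNA per cell cannot be told apart.

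After 6 h of arsenic trioxide, CREBBP, HIPK2 and NCOR1 rose, DAXX and RARA fell, and PML, RXRA, SP100 and ATRX did not pass the test. Rises were 63.3% for CREBBP, 54.5% for HIPK2 and 27.9% for NCOR1 as ratios of group means. DAXX fell by 32.1% and RARA fell by 29.5%. Of all 16803 genes tested 12.0% were higher and 13.4% lower, 25.4% together, at a Benjamini-Hochberg adjusted p under 0.05 in limma-trend on log2 of RPKM + 1, and of the 9 genes 3 were higher and 2 lower, 55.6%. Among the 10159 tested protein-coding genes alone, 14.3% were higher and 16.7% lower. For 8 of the 9 genes every treated library lay on 1 side of every control, as it did for 44.6% of all genes tested. The median log2 fold change was 0.16 for the 9 genes and -0.0033 for all genes tested. No change among the 9 was as large as 2-fold.

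**Figure D1:**
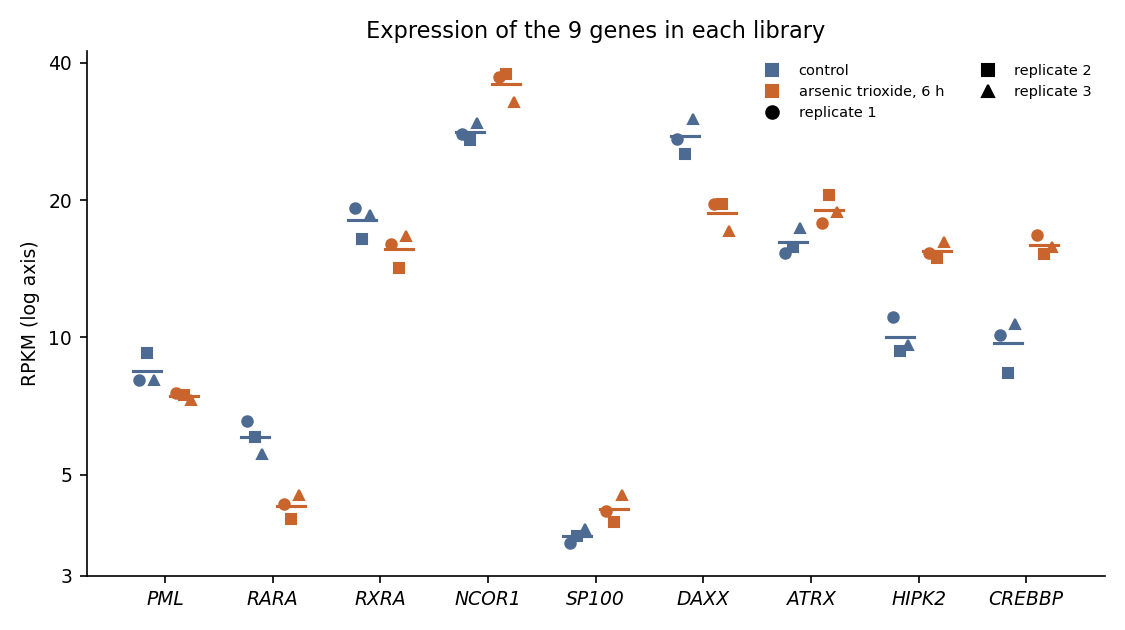
Level of each gene in RPKM (log axis) in the 3 control libraries (blue) and the 3 libraries treated with arsenic trioxide for 6 h (orange). Symbols mark replicate numbers and bars the group means, and the groups overlap in RXRA alone.

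PML (ENSG00000140464, chromosome 15, 73994673 to 74047812, GRCh38) was at 8.06, 9.24 and 8.05 RPKM in control replicates 1, 2 and 3 and at 7.54, 7.49 and 7.3 RPKM in ATO replicates 1, 2 and 3. Every treated library lay below every control library, by a small margin that rests on tight treated values (SD 0.126 against 0.683 RPKM). The means of 8.45 ± 0.683 and 7.44 ± 0.126 RPKM (SD, n = 3 each) corresponded to a fitted log2 change of -0.16 with SE 0.09 (adjusted p = 0.21 by limma-trend), with an unadjusted 95% interval from -0.36 to 0.04. Counting error was 2.17% of the mean, against a spread of 8.08% between the controls.

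RARA (ENSG00000131759, chromosome 17, 40309192 to 40357643) was at 6.57, 6.06 and 5.54 RPKM in the controls and at 4.3, 3.99 and 4.51 RPKM after arsenic trioxide. The highest treated library was below the lowest control. RARA fell from 6.06 ± 0.514 to 4.27 ± 0.262 RPKM (log2 fold change -0.42 with SE 0.1, adjusted p = 0.0256 by limma-trend, lower in 3 of 3 treated libraries). It had the fewest reads of the 9 genes, 400 to 628 per library, and its counting error of 4.4% was below the spread within groups of 8.48% and 6.13%. RARA no longer passed in 6 of 15 alternative settings. Among these were the fits without control replicate 1 (adjusted p = 0.0753 by limma-trend) or 2 (0.0722) and without ATO replicate 1 (0.0684) or 2 (0.0748). Another was the fit without control replicate 1 and ATO replicate 3 together (0.0827). Antisense genes share 17.9% of the exonic bases of RARA, and the library kit does not mark strand. Of these, RARA-AS1 was at 2 to 15 reads and the transcript CTD-2267D19.1 at 13 to 45 reads per library.

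RXRA (ENSG00000186350, chromosome 9, 134317098 to 134440585), the dimer partner of RARA, was at 19.2, 16.4 and 18.6 RPKM in the controls and 16.0, 14.2 and 16.7 RPKM in the treated libraries. This was the gene of the 9 whose groups overlapped. Its log2 fold change was -0.2 with SE 0.09 (adjusted p = 0.147 by limma-trend), with an unadjusted 95% interval from -0.41 to 0.01. RXRA stood at 2.93, 2.71 and 3.36 times the level of RARA in the controls and at 3.73, 3.56 and 3.69 times in the treated libraries, a ratio chosen after the values were seen and given without a test.

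NCOR1 (ENSG00000141027, chromosome 17, 16029157 to 16218185), the nuclear receptor corepressor that brings the deacetylase HDAC3 to unliganded receptors, had the highest mean of the 9 genes in both groups, though its control libraries overlapped those of DAXX. It was at 27.9, 27.1 and 29.5 RPKM in the controls and 37.3, 37.8 and 32.9 RPKM in the treated libraries. ATO replicate 3 was the lowest treated library and still above every control. NCOR1 rose from 28.2 ± 1.24 to 36.0 ± 2.72 RPKM (log2 fold change 0.34 with SE 0.07, adjusted p = 0.0151 by limma-trend). The call was lost, by a narrow margin, in 4 of 15 alternative settings. Among these were the fits without control replicate 2 (adjusted p = 0.0537 by limma-trend) and without ATO replicate 1 (0.0526) or 2 (0.05). PIGL and the transcript CTC-529I10.2, on the other strand, share 3.3% of its exonic bases.

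CREBBP (ENSG00000005339, chromosome 16, 3725054 to 3880726) encodes the acetyltransferase CBP, a coactivator of many factors including nuclear receptors that also resides in PML bodies. It was at 10.1, 8.35 and 10.7 RPKM in the controls and 16.8, 15.2 and 15.8 RPKM after arsenic trioxide. The groups lay far apart, with the lowest treated library above the highest control by more than the range of either group. CREBBP rose from 9.74 ± 1.24 to 15.9 ± 0.79 RPKM (log2 fold change 0.66 with SE 0.1, adjusted p = 0.00494 by limma-trend), the largest change of the 9. It stayed called in all 15 alternative settings (adjusted p 6.64e-05 to 0.0359).

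HIPK2 (ENSG00000064393, chromosome 7, 139561570 to 139777778), a serine/threonine kinase of nuclear bodies that phosphorylates p53, was at 11.1, 9.32 and 9.62 RPKM in the controls and 15.3, 14.9 and 16.2 RPKM in the treated libraries. Every treated library was well above every control. HIPK2 rose from 10.0 ± 0.944 to 15.5 ± 0.666 RPKM (log2 fold change 0.58 with SE 0.08, adjusted p = 0.00412 by limma-trend), the smallest adjusted p of the 9, and was called in all 15 alternatives. HIPK1, a related kinase, fell from 31.4 to 23.6 RPKM (-0.39, adjusted p = 0.0235 by limma-trend), a call lost without ATO replicate 1 (0.055), 2 (0.0565) or 3 (0.0659). HIPK3, the third kinase of the family in these lists, was at 16.0 ± 1.93 and 18.8 ± 0.644 RPKM (0.23, adjusted p = 0.112 by limma-trend). The ratio of HIPK2 to HIPK1 was 0.308, 0.322 and 0.33 in the controls and 0.629, 0.62 and 0.726 in the treated libraries, again chosen after the values were seen.

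DAXX (ENSG00000204209, chromosome 6, 33318558 to 33323016) is a histone chaperone of PML bodies that deposits the histone variant H3.3 together with ATRX. It was at 27.3, 25.3 and 30.2 RPKM in the controls and 19.6, 19.6 and 17.1 RPKM after arsenic trioxide. The groups did not overlap, and ATO replicate 3 was lowest. DAXX fell from 27.6 ± 2.46 to 18.8 ± 1.44 RPKM (log2 fold change -0.53 with SE 0.09, adjusted p = 0.00629 by limma-trend), and the call held in all 15 alternatives. Another annotated gene on the same strand, not analysed here, shares 14.3% of its annotated exonic bases, and its part in the DAXX count was not tested.

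ATRX (ENSG00000085224, chromosome X, 77504878 to 77786233), the chromatin remodeller that works with DAXX, did not pass the test. It was at 15.3, 15.8 and 17.4 RPKM in the controls and 17.8, 20.5 and 18.8 RPKM in the treated libraries. The lowest treated library was just above the highest control. The log2 fold change was 0.22 with SE 0.08 (adjusted p = 0.0772 by limma-trend, unadjusted 95% interval 0.04 to 0.41), and ATRX was called with limma-voom on recovered reads (adjusted p = 0.0257) and with upper quartile factors (0.046). DAXX was at 1.78, 1.6 and 1.74 times the level of ATRX in the controls and at 1.1, 0.956 and 0.908 times in the treated libraries, a ratio chosen after the values were seen. In RPKM the DAXX libraries lay above those of ATRX in the controls and overlapped them after treatment. This comparison depends on the exon length used for DAXX, 3664 bases, where GENCODE 29 gives 3084.

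SP100 (ENSG00000067066, chromosome 2, 230415942 to 230544090), an interferon-inducible body protein that was first found as a target of autoantibodies, had the lowest mean of the 9 in both groups, though its treated libraries overlapped those of RARA. It was at 3.54, 3.66 and 3.79 RPKM in the controls and 4.16, 3.93 and 4.51 RPKM in the treated libraries, without overlap. The log2 fold change of 0.16 with SE 0.1 did not pass the test (adjusted p = 0.307 by limma-trend, unadjusted 95% interval -0.09 to 0.4). The pseudogene HMGB1P3 and an antisense transcript share 5.24% of its exonic bases.

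**Figure D2:**
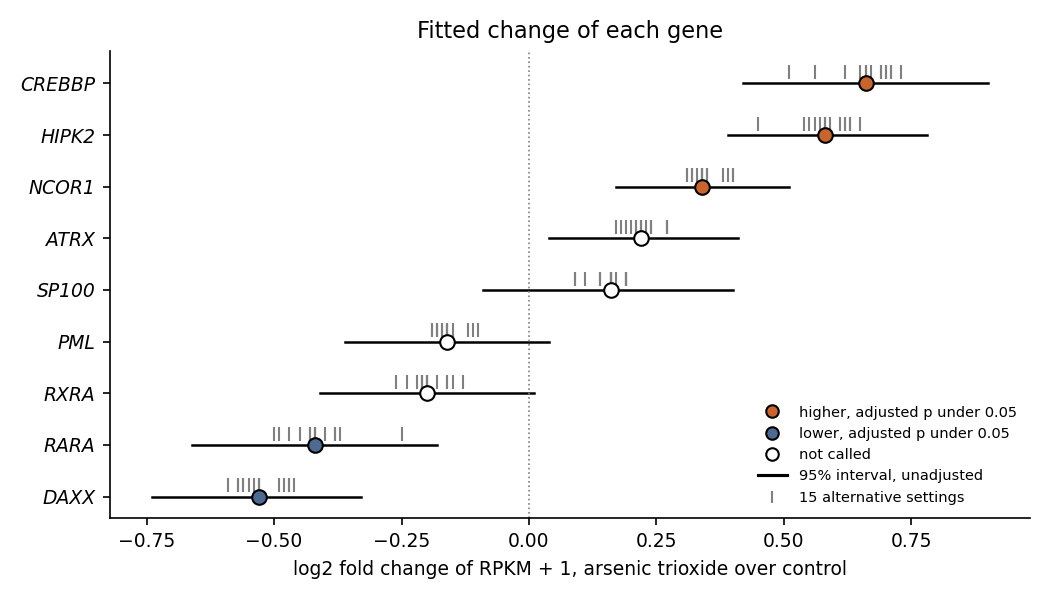
Fitted log2 fold change of RPKM + 1, arsenic trioxide over control, for each gene, with its unadjusted 95% interval (line) and its values in 15 alternative settings (grey ticks). CREBBP, HIPK2 and NCOR1 (orange) were higher and RARA and DAXX (blue) lower at an adjusted p under 0.05, and no gene changed sign in any of the 15 settings.

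The authors' deposited table gave the same 5 genes an adjusted p under 0.05, each with the same sign as here. Its log2 fold changes were 0.69 for CREBBP, 0.61 for HIPK2, 0.34 for NCOR1, -0.57 for DAXX and -0.52 for RARA. For the other genes the authors' deposited table listed adjusted p-values of 0.0754 for ATRX, 0.116 for RXRA, 0.133 for PML and 0.228 for SP100.

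By RPKM, which depends on the exon lengths used, the order in control cells was NCOR1 (28.2 RPKM), DAXX (27.6), RXRA (18.1), ATRX (16.2), HIPK2 (10.0), CREBBP (9.74), PML (8.45), RARA (6.06) and SP100 (3.67). The libraries of the neighbours NCOR1 and DAXX, RXRA and ATRX, HIPK2 and CREBBP, and CREBBP and PML overlapped, so these pairs were not separated beyond their spread. In treated cells the order was NCOR1 (36.0), ATRX (19.1), DAXX (18.8), CREBBP (15.9), RXRA (15.6), HIPK2 (15.5), PML (7.44), RARA (4.27) and SP100 (4.2). Here ATRX and DAXX overlapped, as did CREBBP with RXRA, RXRA with HIPK2, and RARA with SP100. DAXX thus overlapped NCOR1 in the controls and ATRX in the treated cells, while PML, RARA and SP100 had the lowest mean RPKM in both groups.

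To ask whether the fusion partners and their companions changed by different amounts, each gene was divided by PML in the same library. RARA stood at 0.815, 0.656 and 0.689 of PML in the controls and 0.571, 0.533 and 0.618 in the treated libraries, without overlap (log2 difference -0.32). The exact two-sided permutation test gave p = 0.1, the smallest that 3 against 3 libraries allow, and an adjusted p of 0.114 over the 8 ratios. CREBBP went from 0.904 to 1.33 times PML in the controls to 2.03 to 2.22 times after treatment (log2 difference 0.89), and HIPK2 from 1.01 to 1.38 times to 1.99 to 2.22 times (0.81). NCOR1 (0.53), ATRX (0.42), SP100 (0.38) and DAXX (-0.38) relative to PML also did not overlap between the groups, each with the same exact permutation p = 0.1. All 8 ratios share PML, itself lower in every treated library, so they are not separate results. The share of all genes whose ratio to PML does not overlap was not computed, and for single genes it was 44.6%. RXRA relative to PML overlapped, at 1.77 to 2.39 and 1.9 to 2.28 (log2 difference -0.03, exact permutation p = 0.8).

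**Figure D3:**
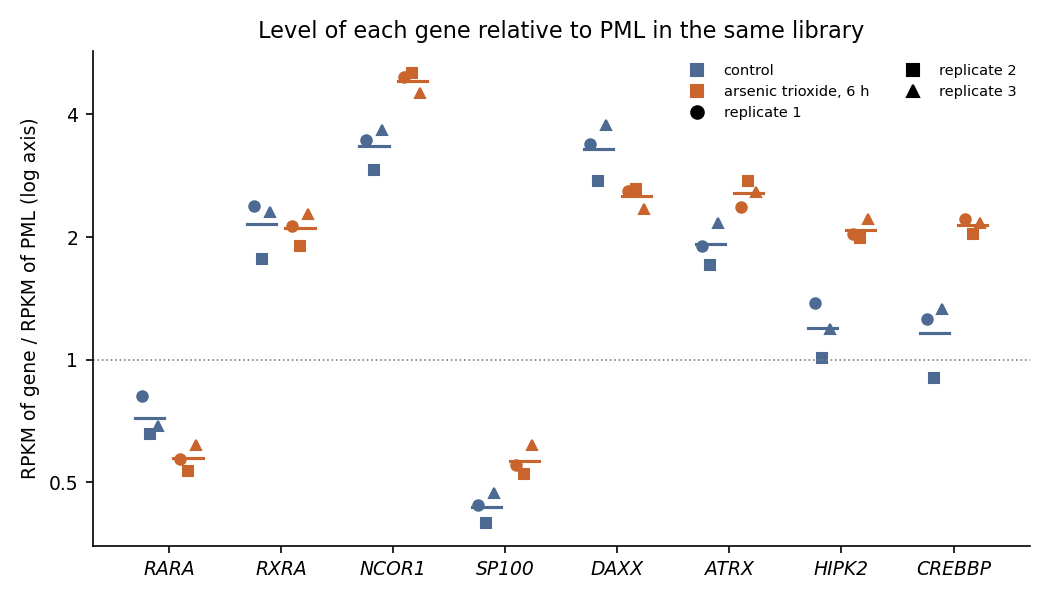
RPKM of each gene divided by that of PML in the same library (log axis), for control (blue) and arsenic trioxide (orange) libraries, with bars at group means. RARA lies below 1 in every library, and CREBBP and HIPK2 move from about 1 to about 2.

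Promoter windows of 250 bases before the annotated start, from RefSeq (GRCh38.p14), were matched for 5 of the 9 genes, with 11 windows in all. PML, DAXX, ATRX and HIPK2 had no entry. The windows are shown for the first start of RARA, the fusion partner whose RNA fell, and of CREBBP, whose RNA rose most. Searched on both strands were the retinoid receptor half-site AGGTCA, the cyclic AMP response element half-site TGACG, the interferon-stimulated response element (GAAA repeated after any 2 bases), the antioxidant response element TGACNNNGC and the heat shock element GAANNTTC. Capitals mark the matches.
RARA, chr17:40308930-40309179, plus strand: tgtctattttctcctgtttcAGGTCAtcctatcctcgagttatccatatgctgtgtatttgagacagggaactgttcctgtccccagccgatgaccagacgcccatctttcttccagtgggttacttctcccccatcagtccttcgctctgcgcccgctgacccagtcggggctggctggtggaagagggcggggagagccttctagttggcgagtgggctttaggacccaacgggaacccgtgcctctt
CREBBP, chr16:3880714-3880963, minus strand: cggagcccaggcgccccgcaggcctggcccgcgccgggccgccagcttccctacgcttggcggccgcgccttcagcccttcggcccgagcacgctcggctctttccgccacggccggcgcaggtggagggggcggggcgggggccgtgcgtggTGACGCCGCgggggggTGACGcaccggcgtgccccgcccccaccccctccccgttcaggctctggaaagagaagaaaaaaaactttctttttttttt
The first RARA window holds AGGTCA at position -230 from the start, and 12.1% of all 35116 windows of this length hold it. The CREBBP window holds TGACG at -97 and -81, a match found in 21.2% of windows, and the match at -97 overlaps the antioxidant response element match, which 10.9% of windows hold. The second RARA window holds the heat shock element (5.78% of windows), both RXRA windows the antioxidant response element, and the windows of NCOR1 and SP100 none of these letters. No window of the 5 genes holds the interferon-stimulated response element, found in 3.02% of all windows. These matches describe letters and were not tested for binding.

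Other genes of the pathway were read from 8 lists. Among 15 further proteins of PML bodies 12 were tested, of which 2 rose and 1 fell (median log2 fold change -0.01), near the 25.4% called among all genes. ASF1A, a histone chaperone, rose from 19.6 to 28.4 RPKM (0.51, adjusted p = 0.00428 by limma-trend), and SP140L, a relative of SP100, from 4.86 to 7.51 RPKM (0.53, adjusted p = 0.0157, lost without control replicate 2 at 0.0515). ASF1A shares 5.44% of its exonic bases with MCM9 on the other strand, at 4.07 and 4.98 RPKM. HIPK1, described above, was the member that fell. SP110 (0.555 ± 0.211 and 0.661 ± 0.265 RPKM) and SP140 (0.601 ± 0.245 and 0.837 ± 0.0994 RPKM) were below the filter of 1 RPKM.

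In the list of enzymes and modifiers that set the turnover of PML protein, among them the ligase RNF4, limma-trend called 0 of 14 genes (median 0.02). Of all genes tested 25.4% were called. At an unadjusted p under 0.05, 1 was higher and 0 lower, and limma-voom on recovered reads called 1 higher and 0 lower. RNF4, the SUMO-targeted ubiquitin ligase of PML and the fusion, was at 32.3 ± 0.518 and 29.8 ± 2.62 RPKM (-0.11, adjusted p = 0.289 by limma-trend).

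Of 6 tested genes of the corepressor complex of NCOR1 besides NCOR1 itself, 1 rose and 0 fell (median 0.06), beside 12.0% higher and 13.4% lower among all genes. In this list 1 gene was lower at an unadjusted p under 0.05, and limma-voom also called 1 lower. The gene that rose was KDM4A, a histone demethylase, from 17.2 to 29.7 RPKM (0.75, adjusted p = 0.000974 by limma-trend). It shares 8.97% of its exonic bases with KDM4A-AS1 on the other strand, at 3.31 and 3.62 RPKM. HDAC3 was at 19.6 ± 0.102 and 20.5 ± 0.801 RPKM (0.06, adjusted p = 0.468). In the SIN3 and class I deacetylase list limma-trend called 0 of 8 genes (median -0.13), where it called 25.4% of all genes. At an unadjusted p under 0.05, 0 of this list were higher and 2 lower, and limma-voom called 0.

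Of 8 tested coactivators of nuclear receptors besides CREBBP, 5 rose and 0 fell (median log2 fold change 0.42), where 12.0% of all genes were higher and 13.4% lower (median -0.0033), with 1 lower at an unadjusted p under 0.05 and 0 lower in limma-voom. Among tested protein-coding genes alone 14.3% were higher and 16.7% lower. The list was chosen with earlier results of these data known. NCOA2 was at 6.87, 6.82 and 7.16 RPKM in the controls and 15.6, 15.1 and 16.0 RPKM in the treated libraries (1.06, adjusted p = 0.000348 by limma-trend). The other p160 coactivators NCOA3 (0.69, from 9.18 to 15.4 RPKM, adjusted p = 0.00145) and NCOA1 (0.68, from 5.39 to 9.27 RPKM, adjusted p = 0.00921) rose with it, and these 3 calls held in all 15 alternatives. EP300, the paralogue of CREBBP that encodes p300, rose less, from 16.6 to 20.5 RPKM (0.29, adjusted p = 0.0242), and the acetyltransferase KAT2B from 3.3 to 5.29 RPKM (0.55, adjusted p = 0.0209). Both calls were lost without control replicate 1 (0.0506 and 0.0582), control replicate 3 (0.0504 and 0.0537) or ATO replicate 3 (0.0636 and 0.0525), and without control replicate 1 and ATO replicate 3 together (0.0947 and 0.088). EP300 lost it also without control replicate 2 (0.0764) or ATO replicate 1 (0.0776), and KAT2B without ATO replicate 2 (0.0505). Without control replicate 1, control replicate 3 or ATO replicate 3 the list had 3 higher genes. The ratio of CREBBP to EP300 was 0.538 to 0.62 in the controls and 0.747 to 0.791 in the treated libraries. This ratio, too, was chosen after the values were seen and is given without a test.

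Of the other retinoid receptors and partners of RXR, 7 of 12 were tested, 2 higher and 1 lower (median -0.01), beside 12.0% higher and 13.4% lower among all genes. PPARD, a fatty acid receptor, rose from 1.88 to 4.25 RPKM (0.88, adjusted p = 0.00698 by limma-trend). RXRB rose from 6.28 to 9.32 RPKM (0.5, adjusted p = 0.0166), a call lost without control replicate 3 (0.0572) or ATO replicate 1 (0.0576). It shares 6.22% of its exonic bases with SLC39A7 on the other strand, which was higher than RXRB at 28.8 and 31.4 RPKM. The part of SLC39A7 in the RXRB count was not tested. THRA, the thyroid hormone receptor alpha, fell from 11.4 to 7.1 RPKM (-0.62, adjusted p = 0.00362), and 3.78% of its exonic bases are shared with NR1D1 on the other strand, which was at 3.38 and 1.25 RPKM. Without control replicate 1 and ATO replicate 3 together 0 genes of this list were higher, with PPARD at adjusted p = 0.0519 and RXRB at 0.0953. RARB, itself a retinoic acid target, was at 1.68 ± 0.0602 and 1.32 ± 0.209 RPKM (-0.21, adjusted p = 0.269). RARG, at 0.0362 ± 0.0285 and 0.113 ± 0.037 RPKM, did not reach the filter. CYP26A1, the retinoic acid hydroxylase, was not analysed here.

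Among 14 retinoic acid response genes 8 were tested, with 3 higher and 1 lower (median 0.25), beside 12.0% and 13.4% of all genes. ICAM1, an adhesion molecule also induced by inflammatory signals, rose from 2.47 to 9.04 RPKM (1.47, adjusted p = 0.00894 by limma-trend). TNFSF10, which encodes the death ligand TRAIL, fell from 4.05 to 1.59 RPKM (-0.97, adjusted p = 0.00245). PRAM1, an adaptor gene of granulocytes, rose from 6.44 to 9.93 RPKM (0.54, adjusted p = 0.0466). Its call was lost in 9 of 15 alternatives, among them without each of control replicates 1 (0.0744), 2 (0.127) and 3 (0.0836) and ATO replicates 2 (0.0862) and 3 (0.0873). Without control replicate 2, ATO replicate 2 or ATO replicate 3 the list had 1 higher gene.

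PML and SP100 are interferon-inducible, and 2 of 6 tested interferon response genes rose while 0 fell (median 0.4), beside 12.0% higher and 13.4% lower among all genes, with 0 lower also at an unadjusted p under 0.05 and in limma-voom. IRF1 rose from 2.66 to 5.53 RPKM (0.84, adjusted p = 0.00286 by limma-trend), and STAT2 from 5.43 to 9.94 RPKM (0.79, adjusted p = 0.0137). IRF1 shares 22% of its exonic bases with C5orf56 on the other strand, whose mean was 0.421 RPKM in control and 0.728 RPKM in treated libraries. The other 7 genes of this list were below the filter.

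**Figure D4:**
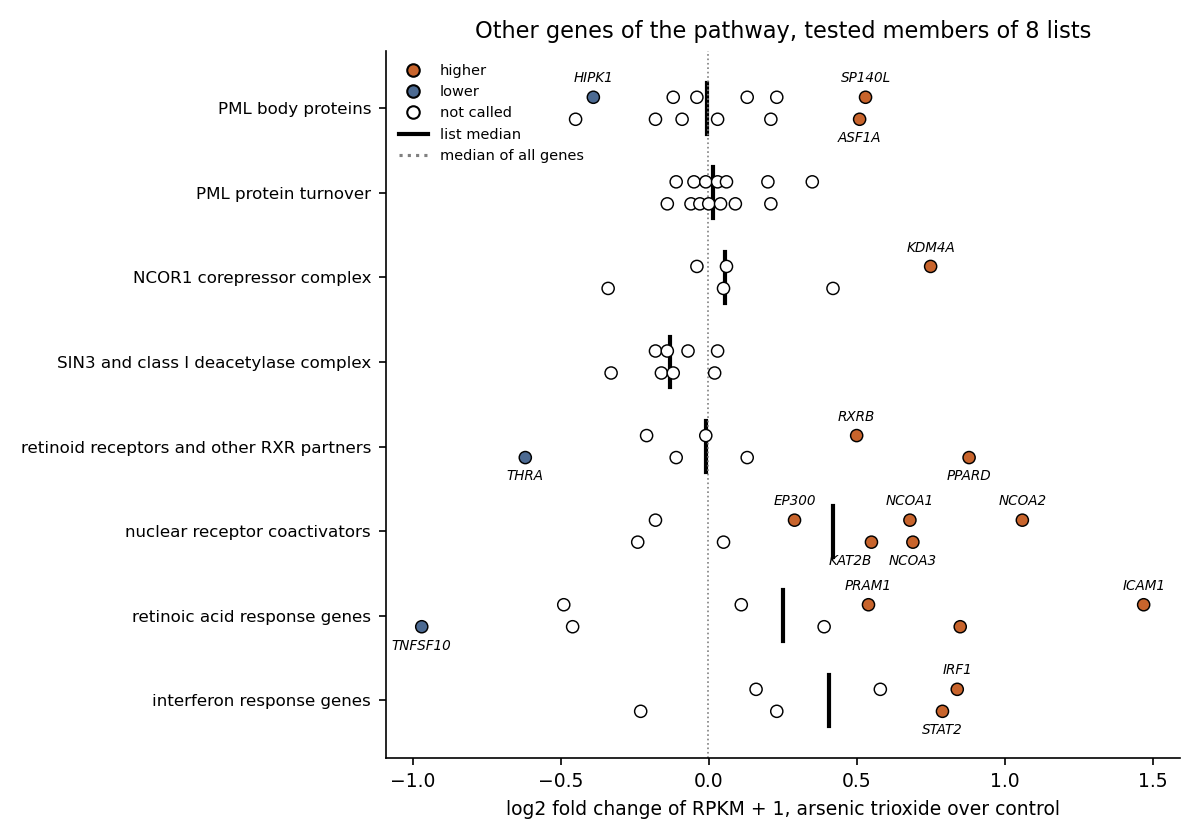
Fitted log2 fold change of RPKM + 1 for each tested gene of 8 lists, coloured by call, with the list median (black bar) and the median of all genes tested (dotted line). The 5 coactivators that rose, from EP300 (0.29) to NCOA2 (1.06), lie to the right of the median of all genes tested, while the turnover and SIN3 lists hold no called gene.

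The genes whose profiles over the 6 libraries were most like those of PML and RARA were found by the root mean square difference of centred log2 of RPKM + 1. For PML these were CDK16 (0.0224), NIF3L1 (0.0256) and WDR59 (0.0304), where the median over all genes tested was 0.226. For RARA they were NFRKB (0.0255), MARCH1 (0.0261) and ZSCAN25 (0.0278), with a median of 0.293. NFRKB went from 19.7 to 14.3 RPKM and CDK16 from 20.9 to 18.8 RPKM.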

How the data were processed

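Total RNA of NB4 cells, 3 control libraries and 3 treated with arsenic trioxide, was depleted of ribosomal RNA and sequenced, per the labels' protocols. Tools listed in the submitters' processing notes are HISAT2 2.1.0, HTSeq and DESeq2, with the build hg38. The authors deposited RPKM per gene, from reads with duplicates removed per the file headers; the unit was read from the values. The deposited table also holds a mean normalized signal, a log2 fold change with its error, a test score and a p-value before and after adjustment, per the file headers.

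RPKM was turned into whole reads with GENCODE 29 exon lengths (GRCh38), whole within 0.01 reads for 93% of genes and for 100% once the deposited mean settled the length, as for RXRA, DAXX and ATRX. The test was limma 3.58.1 (R 4.3.3) in trend mode on log2 of RPKM + 1, treatment as the only term, for the 16803 genes averaging 1 RPKM or more, with Benjamini-Hochberg adjustment. A fold on this scale understates changes of low genes. Ratios to PML used exact two-sided permutation over 20 assignments. The fit was checked on simulated data.

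Members and lists were chosen with earlier results of these data known. Named genes are all members, 12 set genes and, per list, up to 6 called genes with the smallest p-values, and the 3 genes most like PML and RARA. Pseudocount, filter, scaling, limma-voom, a replicate block and left-out libraries were varied. Genes not in the table were not analysed here, and some genes under the naming rule are not reported here.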

Additional observations from a re-analysis of the deposited data

How the results depend on the processing

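No gene of the 9 changed sign in any of 15 alternatives. CREBBP, HIPK2 and DAXX stayed called and PML, RXRA and SP100 uncalled in all 15. With control replicate 1 and ATO replicate 3 left out together, an alternative chosen after seeing the data, RARA was at -0.4 (not called), 1202 genes of the table were higher and 1481 lower, and the counts were 0 higher for retinoid receptors and RXR partners, 3 for coactivators and 1 higher with 2 lower for retinoic acid response genes. Leaving out 1 library gave RARA -0.47 to -0.37, NCOR1 0.31 to 0.4, 1302 to 1511 higher and 1419 to 1906 lower genes of the table, 1 to 3 higher and 0 to 1 lower body proteins, 0 to 1 lower genes of the SIN3 list, 1 to 2 higher RXR partners, 3 to 4 higher coactivators and 1 to 2 higher retinoic acid response genes. RXRA relative to PML (-0.03) ranged from -0.16 without control replicate 2 to 0.05 without control replicate 1, and was also above 0 without control replicate 3 (0.03) and ATO replicate 2 (0.04). Limma-voom on recovered reads called ATRX (0.24), 2 lower body proteins, 1 higher turnover gene and 1 lower corepressor gene. Upper quartile factors called ATRX (0.27) and 1 higher turnover gene. Deviations of same-numbered libraries correlated at -0.0852, 0.148 and -0.0829, and not every library correlated best with its own number. Deviations within groups of 3 libraries cannot decide whether same-numbered libraries share a culture or batch. With the replicate number as a block RARA (-0.42, adjusted p = 0.0682) and NCOR1 (0.34, adjusted p = 0.0526) were not called, 1 RXR partner was higher, and the table had 1460 higher and 1616 lower genes. Of 18 called list genes, 10 were called in every alternative and 8 lost the call in some. At this depth counting error was 0.973% to 4.4% for the 9 genes, below the spread between libraries of RARA but not below that of treated PML (2.17% against 1.69%).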

Other observations

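Among the called genes, exon length differed between those that rose and those that fell. CREBBP, HIPK2 and NCOR1, which rose, have 15492, 15402 and 15404 exonic bases, and DAXX and RARA, which fell, have 3664 and 4731. PML, RXRA, SP100 and ATRX, which were not called, have 12657, 10814, 12618 and 19302. Their log2 fold changes were -0.16, -0.2, 0.16 and 0.22. The unadjusted 95% intervals were -0.36 to 0.04, -0.41 to 0.01, -0.09 to 0.4 and 0.04 to 0.41. ATRX was longer than any called gene. The same property moved with calls across the table: of 1089 tested protein-coding genes with at least 10000 exonic bases, 20.2% were higher and 11.2% lower, with a median log2 fold change of 0.06. Of 5062 such genes under 5000 bases, 12.1% were higher and 18.4% lower (median -0.04). The part of exon length in the changes of the 5 genes was not tested.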
